A study of Mus musculus with 9 samples.

Results

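The Hox genes of the A, B, C and D clusters were followed through 3 structures of the embryonic mouse kidney. Every probe set whose single gene symbol in the platform annotation was Hox, a cluster letter and a number was taken, whatever its values, and 37 of the 22626 probe sets tested met that rule. They measured 31 of the 39 genes that RefSeq lists in the 4 clusters: 9 of 11 in cluster A, 9 of 10 in B, 6 of 9 in C and 7 of 9 in D. Another 3 probe sets with a Hox symbol carried several symbols and were left out, as was 1 for the antisense transcript Hoxa11os. Every called difference of those with several symbols was lower in a nephron structure than in the duct, and their values are given with those of Hoxa11os.

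Transcripts were measured on Affymetrix MOE430A arrays in renal vesicles, s-shaped bodies and collecting ducts microdissected from wild-type mouse kidneys of strain 129 at embryonic day E14.5 (Theiler stage 22), with embryos of unknown sex and 3 arrays for each structure. A nephron begins as the renal vesicle, a small epithelial ball, and folds into the s-shaped body at a later stage. The collecting duct grows from the ureteric bud and served as the reference. Nephron samples were pools of 20 structures, the pool size given for the duct is 1, and all RNA went through 2 rounds of T7 amplification. The labels do not say whether replicates came from different embryos, so p-values measure the spread between these samples.

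Hox genes encode homeodomain transcription factors that give cells their position along the body axis. In each cluster they lie in a row and are numbered from the end expressed most anteriorly to the end expressed most posteriorly, and genes with the same number in different clusters are paralogues, descended from 1 ancestral gene. In the mouse kidney the Hox11 paralogues act with Eya1 and Pax2 in the metanephric mesenchyme to switch on Gdnf, which draws out the ureteric bud. The Hox10 paralogues are needed in the stroma between the tubules, and the Hoxb7 promoter is widely used to drive transgenes in the ureteric bud and its branches.

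The arrays carried the markers of their labels as summed levels, with exceptions among single markers. The 6 renal vesicle markers summed to 18377 to 20550 intensity units in the renal vesicle, against 2957 to 3562 for the duct and 3882 to 4161 for the s-shaped body. Ccnd1 alone gave 11676 to 13876 of the renal vesicle sum. Against the duct 5 of the 6 were higher, and Wnt4, at 1148 to 1829 units in the duct, was not called (log2 difference 0.68, limma adjusted p = 0.168). The 4 measured podocyte markers summed to 30034 to 36211 in the s-shaped body, against 290 to 346 in the duct. Podxl alone gave 19487 to 25438 of the s-shaped body sum, and all 4 were higher there than in the duct. The 9 duct markers summed to 30084 to 44575 in the duct, 2240 to 4445 in the renal vesicle and 1191 to 1287 in the s-shaped body. Ret and Aqp2, which define the duct's tips and its principal cells, overlapped across the 3 structures (Ret 86.96 to 182 and Aqp2 124 to 299 over the 9 arrays). Wnt11 stood above the duct in the renal vesicle (log2 difference 1.55, adjusted p = 0.00832) and Wnt9b was dim and not called. Most of the summed duct level came from Krt8, Krt18 and Cdh1, which with Wnt7b and Gata3 were the 5 of 9 duct markers lower in the renal vesicle. Correlations across all probe sets, which are not independent replicates, were 0.958 to 0.981 between arrays of 1 structure and 0.896 to 0.937 between structures. Array medians ran from 112 to 145 units. No marker was at 0 on any array.

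Most summed levels of markers listed for other cell types differed between the structures. The 10 stroma markers summed to 22961 to 29912 units in the s-shaped body, 1255 to 2678 in the renal vesicle and 673 to 1008 in the duct, and 7 of the 10 passed as higher in the s-shaped body in each of its comparisons. The 8 endothelium markers summed to 5943 to 6438 in the s-shaped body, 409 to 699 in the renal vesicle and 458 to 770 in the duct, and all 8 were higher in the s-shaped body than in either. In renal vesicle against duct, 5 stroma markers and 1 endothelium marker were higher. The 4 measured erythroid markers summed to 18047 to 21718 in the s-shaped body, 421 to 2567 in the renal vesicle and 72 to 2398 in the duct, most of it Hbb-y. The 6 macrophage markers summed to 3243 to 3854, 589 to 862 and 733 to 844 in the same order. Csf1r alone gave 2696 to 3115 of that sum in the s-shaped body, and of the 6 markers 2 were higher and 1, Ptprc, was lower there than in the renal vesicle. The 5 measured urothelium markers summed to 2645 to 4104 in the duct, 401 to 567 in the renal vesicle and 371 to 563 in the s-shaped body. Trp63 gave 1760 to 2985 of the duct sum, and only Trp63 and Upk3a were called, both highest in the duct. The 6 cap mesenchyme markers summed to 623 to 962 in the renal vesicle, against 535 to 679 (s-shaped body) and 381 to 418 (duct). In renal vesicle against duct 3 of these 6 were higher, 1, Eya1, was lower and 2 were not called. The 5 measured neural markers summed to 320 to 529 in any structure. Most of these sums differed between some of the structures compared below. Their part in the Hox differences was not tested. In samples of this kind fewer cells of a type and less RNA per cell cannot be told apart.

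Probe sets of 6 genes of cluster A (Hoxa2, Hoxa3, Hoxa5, Hoxa9, Hoxa10 and Hoxa11) and 4 of cluster C (Hoxc4, Hoxc6, Hoxc8 and Hoxc9), with Hoxd10 and Hoxd11, exceeded their duct level in renal vesicles, while Hoxb1, Hoxb9, Hoxd8 and Hoxd9 were lower. A change here is an adjusted p under 0.05 in limma's moderated test on log2(intensity + 26) after quantile normalization, adjusted by the Benjamini-Hochberg method over all 22626 probe sets. Of the 37 Hox probe sets 16 changed, or 43.2%, against 15.3% of all probe sets. The 12 that were higher were 6 of the 12 in cluster A, 4 of the 8 in cluster C and 2 of the 7 in cluster D, where 7.83% of all probe sets were higher. The 4 that were lower, against 7.49% of all, were 2 of the 10 in cluster B and 2 in cluster D. On the normalized values, every renal vesicle array lay above every duct array in 15 Hox probe sets and every one lay below in 7, where 15.7% and 15.5% of all did so, or 31.1% together. The median log2 difference was 0.19 over the Hox probe sets and -0.0012 over all. The 4 lower calls became 2 without any 1 of the renal vesicle arrays or without collecting duct replicate 2 or 3, when Hoxb1 and Hoxb9 no longer passed.

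The s-shaped body differed from the duct in the same clusters and in more genes of cluster B. It changed in 19 of the 37 probe sets, or 51.4%, against 16.6% of all. The 11 that were higher, against 8.8% of all, were 6 of cluster A, 4 of cluster C and Hoxd10. The 8 that were lower, against 7.83% of all, were 5 of cluster B (Hoxb1, Hoxb2, Hoxb5, Hoxb6 and Hoxb9) and 3 of cluster D (Hoxd1, Hoxd8 and Hoxd9). On the same values the s-shaped body arrays lay wholly above the duct in 11 Hox probe sets and wholly below it in 9, against 14.7% and 16.9% of all, or 31.7% together. The median log2 difference was 0.0022 over the Hox probe sets and -0.04 over all. Both comparisons use the same 3 collecting duct arrays, so their values are not independent of each other. A moderated F test over the 3 structures called 20 of the 37, against 26.1% of all probe sets.

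**Figure D1:**
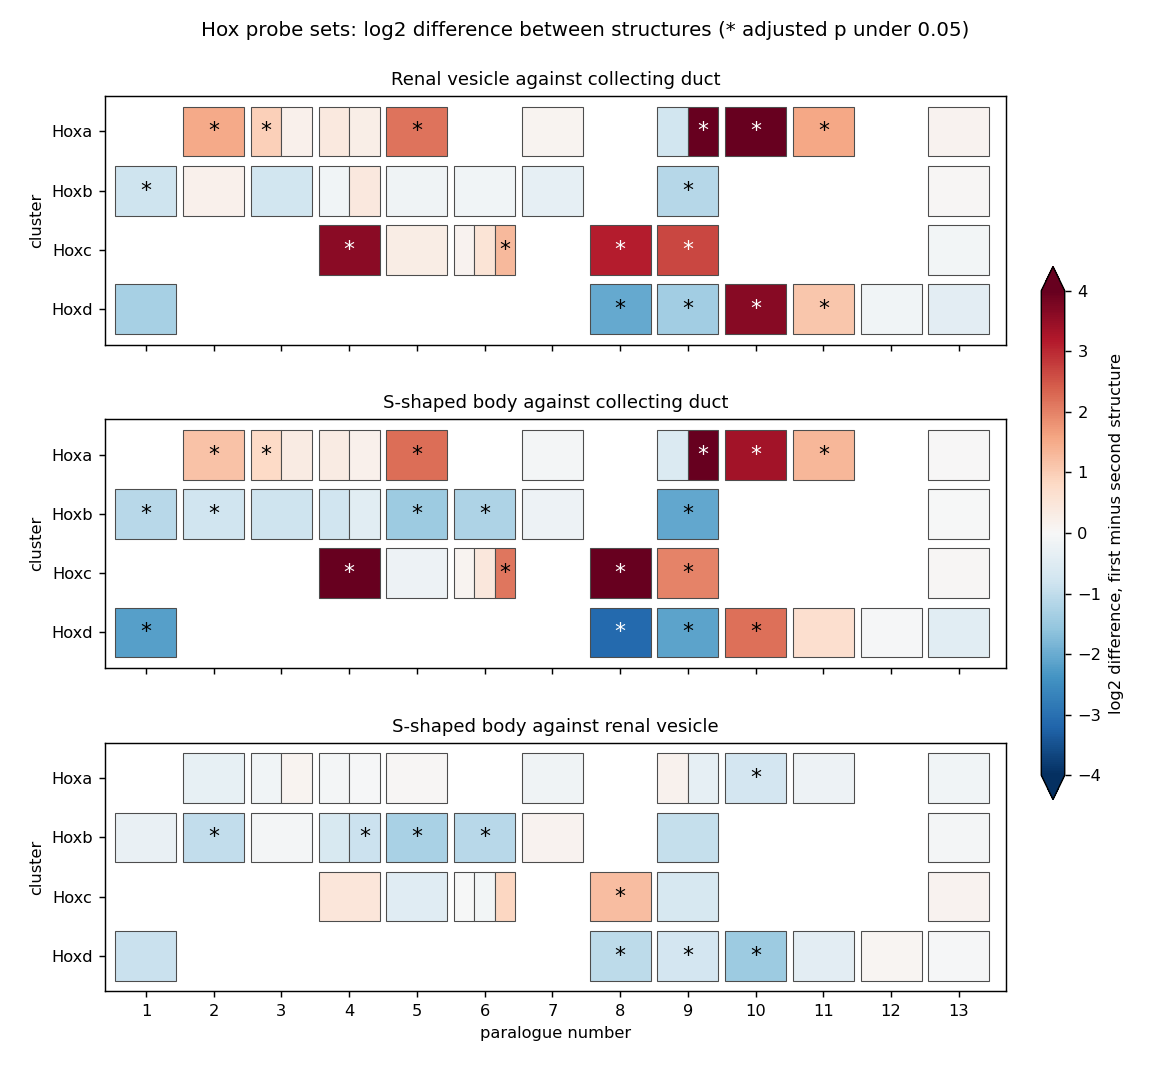
Log2 differences of the Hox probe sets in the 3 comparisons, arranged by cluster and paralogue number, with cells divided where a gene had several probe sets asterisks for an adjusted p under 0.05 and the colour scale ending at 4. The nephron structures were higher than the duct in the called probe sets of clusters A and C and at Hoxd10. They were lower at Hoxb1, Hoxb9, Hoxd8 and Hoxd9, and, without a call, at Hoxa9 probe set 1421579_at.

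In cluster A the posterior genes Hoxa9 and Hoxa10 differed most from the duct. Hoxa9, a posterior patterning gene also known for its part in blood stem cells, had intensities of 7408, 7749.7 and 9462 in the renal vesicle arrays, 6183, 5508 and 5919 in the s-shaped body arrays and 8.67, 97.7 and 92.4 in the duct arrays for probe set 1455626_at. Every nephron array lay far above every duct array. The log2 difference from the duct was 6.69 (SE 0.36, 103-fold, adjusted p = 1.76e-06) in the renal vesicle and 6.31 (79.5-fold, adjusted p = 1.32e-06) in the s-shaped body. Hoxa10, which patterns the uterus and acts with Hoxd10 in the kidney stroma, had 1037, 973 and 1301 units in the renal vesicle, 693, 665 and 658 in the s-shaped body and 33.6, 47.0 and 51.5 in the duct. Its 3 structures did not overlap and fell in the order renal vesicle, s-shaped body, duct. The log2 difference from the duct was 4.11 (SE 0.16, adjusted p = 2.1e-07) in the renal vesicle and 3.37 (adjusted p = 3.71e-07) in the s-shaped body.

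Hoxa11, a Hox11 paralogue of the mesenchyme that induces the ureteric bud, had 227, 376 and 315 units in the renal vesicle, 288, 241 and 315 in the s-shaped body and 78.0, 99.9 and 122 in the duct. Both nephron structures lay above the duct and overlapped each other. The log2 difference from the duct was 1.54 (SE 0.21, adjusted p = 0.000667) in the renal vesicle and 1.32 (adjusted p = 0.00123) in the s-shaped body. Hoxa5, which is needed for lung and upper thoracic patterning, had 279.7, 305 and 299.9 units in the renal vesicle, 292, 339 and 369.9 in the s-shaped body and 22.8, 78.4 and 68.6 in the duct. Its log2 difference was 2.19 (SE 0.25, adjusted p = 0.000213) in the renal vesicle and 2.23 (adjusted p = 0.000108) in the s-shaped body, with no overlap with the duct in either.

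The anterior genes of cluster A were dim. Hoxa2, a hindbrain and second pharyngeal arch gene, stayed below the median of every array, at 102, 90.5 and 79.3 units in the renal vesicle, 73.8, 83.8 and 66.6 in the s-shaped body and 14.4, 22.5 and 22.9 in the duct. The duct arrays were nevertheless all the lowest, and the log2 difference was 1.52 (SE 0.19, adjusted p = 0.000419) in the renal vesicle and 1.18 (adjusted p = 0.00153) in the s-shaped body. For Hoxa3, a gene of the third pharyngeal arch, 1 of the 2 probe sets was higher in both nephron structures, by 0.95 (adjusted p = 0.0194) in the renal vesicle and 0.80 (adjusted p = 0.0398) in the s-shaped body. It too lay below every array median. Its call in the renal vesicle was lost without renal vesicle replicate 2 (adjusted p = 0.0696), collecting duct replicate 2 (0.0517) or collecting duct replicate 3 (0.0529), and in the s-shaped body it was lost when any array other than s-shaped body replicate 2 was left out (adjusted p = 0.0521 to 0.132).

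**Figure D2:**
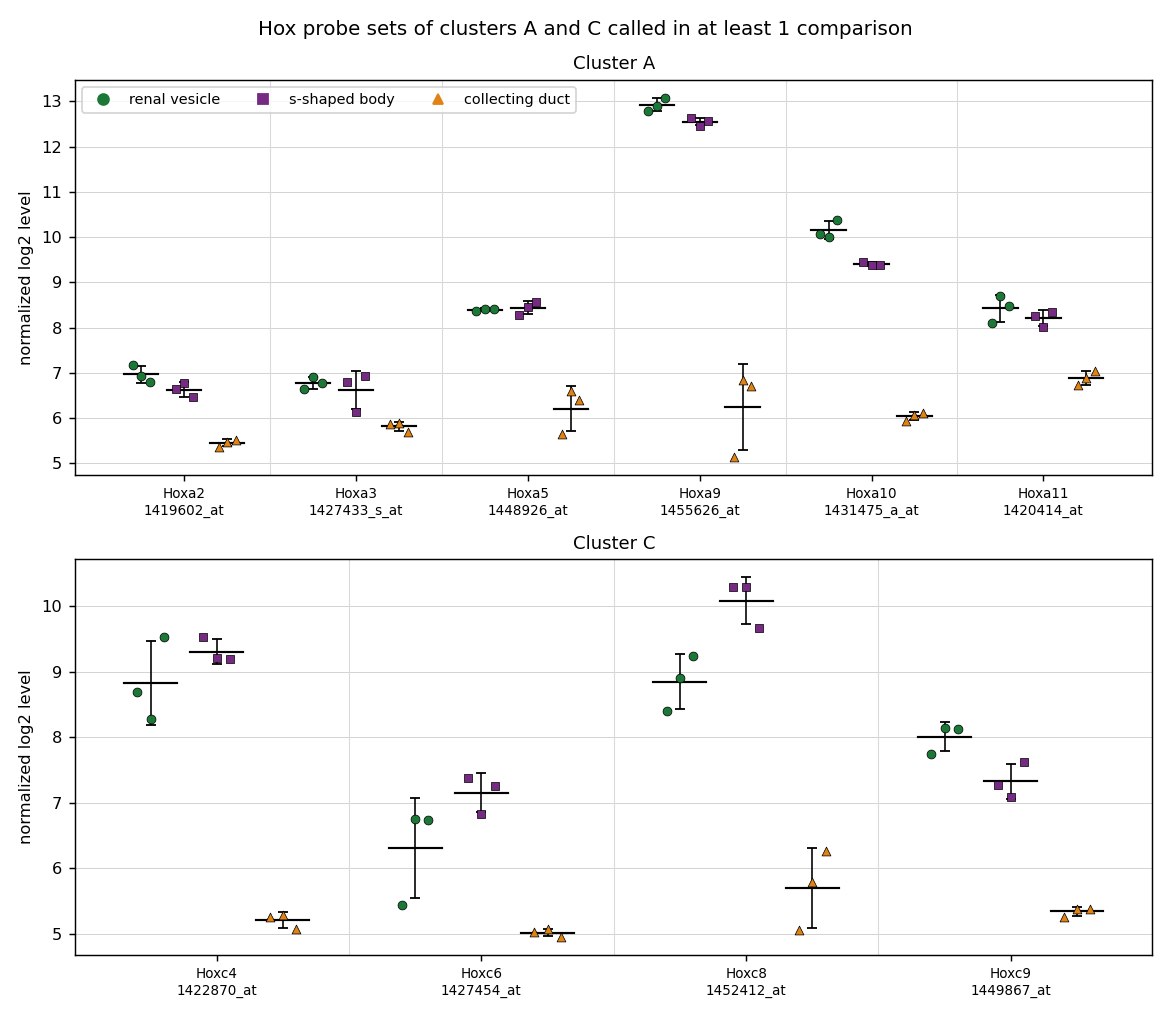
Normalized log2 levels of the probe sets of clusters A and C called in at least 1 comparison, with 3 arrays of each structure as points and bars for the mean ± SD. Hoxa9, Hoxa10, Hoxc4 and Hoxc8 had all nephron arrays well above the duct arrays.

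In cluster C the probe sets from Hoxc4 to Hoxc9 that differed from the duct were all higher in the nephron structures. Hoxc4, an anterior neck and thorax gene, had 363, 270.3 and 681 units in the renal vesicle, 726, 578 and 569 in the s-shaped body and 11.4, 16 and 9.05 in the duct. The duct arrays were all far below the others. The log2 difference was 3.62 (SE 0.29, adjusted p = 1.95e-05) in the renal vesicle and 4.10 (adjusted p = 5.04e-06) in the s-shaped body. Hoxc8, which patterns the thorax and its motor neurons, had 288, 440.4 and 556 units in the renal vesicle, 1225, 1234 and 794 in the s-shaped body and 6.74, 34.5 and 60.1 in the duct. It stood highest in the s-shaped body, with no overlap between any structures, at a log2 difference from the duct of 3.15 (SE 0.33, adjusted p = 0.00013) in the renal vesicle and 4.38 (adjusted p = 7.64e-06) in the s-shaped body.

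Hoxc9, which in the spinal cord separates thoracic from limb motor neurons, had 169, 242 and 240.1 units in the renal vesicle, 131, 111 and 181 in the s-shaped body and 11.3, 19.2 and 17.6 in the duct. All nephron arrays lay above the duct arrays, with a log2 difference of 2.67 (SE 0.22, adjusted p = 2.09e-05) in the renal vesicle and 1.99 (adjusted p = 9.44e-05) in the s-shaped body. Hoxc6, a thoracic gene, had 14.7, 77.1 and 74.5 units in the renal vesicle, 143, 87.1 and 137 in the s-shaped body and 5.96, 9.14 and 6.02 in the duct for probe set 1427454_at. Its duct arrays were lowest throughout, and the log2 difference was 1.30 (SE 0.33, adjusted p = 0.0251) in the renal vesicle and 2.14 (adjusted p = 0.00121) in the s-shaped body. The renal vesicle call was lost on leaving out renal vesicle replicate 2 (adjusted p = 0.0929) or 3 (0.0828), or collecting duct replicate 1 (0.0562), 2 (0.0705) or 3 (0.0613).

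Cluster D changed sign between neighbours. Hoxd10, a Hox10 paralogue, had 1161, 1209 and 1071 units in the renal vesicle, 622, 368 and 331 in the s-shaped body and 64.7, 76.2 and 81.8 in the duct. Hoxd9, a posterior gene of the same cluster, had 735, 961 and 531 in the renal vesicle, 480.2, 395 and 472 in the s-shaped body and 2156, 2241 and 1634 in the duct. Hoxd8 had 921, 1461 and 485 in the renal vesicle, 498, 441 and 356 in the s-shaped body and 3834, 3669 and 3669 in the duct. Hoxd10 was thus lowest in the duct, with no overlap, and Hoxd9 and Hoxd8 were highest there, with no overlap either. In the renal vesicle the log2 difference from the duct was 3.65 for Hoxd10 (SE 0.22, adjusted p = 3.73e-06), -1.40 for Hoxd9 (SE 0.21, adjusted p = 0.00124) and -2.06 for Hoxd8 (SE 0.30, adjusted p = 0.00114). In the s-shaped body it was 2.21 for Hoxd10 (adjusted p = 5.17e-05), -2.14 for Hoxd9 (adjusted p = 4.37e-05) and -3.10 for Hoxd8 (adjusted p = 4.42e-05).

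The start sites of Hoxd10 and Hoxd9 lie 5872 bases apart and those of Hoxd9 and Hoxd8 6852, in RefSeq for assembly GRCm38.p6. Their promoters are shown because Hoxd10 differed from the duct in the opposite direction to its neighbour Hoxd9 and to Hoxd8. Each line runs from 250 bases before to 50 after the start site, on the plus strand, as listed by RefSeq for GRCm38.p6, at chr2:74691641-74691940 for Hoxd10, chr2:74697513-74697812 for Hoxd9 and chr2:74704365-74704664 for Hoxd8. Capitals mark matches to any of the motifs searched on both strands, which were the TATA box (TATAAA), the CCAAT box (CCAAT), the GC box (GGGCGG), a core of posterior Hox and Cdx factors (TTTATGG) and a Pbx and Hox composite (TGATTNAT).
Hoxd10: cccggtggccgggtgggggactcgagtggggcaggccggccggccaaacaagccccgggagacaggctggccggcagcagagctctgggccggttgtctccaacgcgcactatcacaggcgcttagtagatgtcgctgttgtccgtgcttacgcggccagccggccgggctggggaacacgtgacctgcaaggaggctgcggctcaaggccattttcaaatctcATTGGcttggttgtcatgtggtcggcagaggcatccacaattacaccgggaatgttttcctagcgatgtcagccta
Hoxd9: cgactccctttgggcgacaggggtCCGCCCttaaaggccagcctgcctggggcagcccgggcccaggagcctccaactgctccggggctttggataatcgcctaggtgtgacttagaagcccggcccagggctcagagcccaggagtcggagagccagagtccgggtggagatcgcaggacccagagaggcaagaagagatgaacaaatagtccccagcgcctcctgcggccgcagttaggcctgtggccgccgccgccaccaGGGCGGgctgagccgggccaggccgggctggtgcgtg
Hoxd8: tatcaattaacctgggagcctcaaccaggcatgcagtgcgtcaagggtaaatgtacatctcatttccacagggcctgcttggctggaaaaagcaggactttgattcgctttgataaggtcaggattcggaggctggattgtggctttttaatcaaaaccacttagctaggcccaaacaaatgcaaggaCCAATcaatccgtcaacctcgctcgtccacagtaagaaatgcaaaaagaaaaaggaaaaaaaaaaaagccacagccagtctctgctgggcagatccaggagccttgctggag

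Hoxd10 had 1 CCAAT match on the minus strand at -26 from the start site, Hoxd9 had 2 GC box matches at -226 and 14, and Hoxd8 had 1 CCAAT match at -62. The 3 promoters differed in base composition: their GC content was 62.7%, 68.3% and 46.7%, with 22, 20 and 6 CpG dinucleotides. A CCAAT match stood in 37.4% of 32851 RefSeq promoters of the same length and in 55% of the 20 promoters found for 18 of the 31 Hox genes, and a GC box match in 35.7% and 40%. A TATA box stood in 13.6% of all promoters and 10% of the Hox promoters, the Pbx and Hox composite in 3.22% and 10%, and TTTATGG in 2.75% of all and none of the 20 Hox promoters. Median GC content was 58.7% in the Hox promoters and 52.7% in all. A match is a string of letters, not evidence of binding.

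Hoxd1, known in the mouse for its part in sensory neurons, had 93.2, 133 and 2.79 units in the renal vesicle, 13.1, 34.5 and 19 in the s-shaped body and 202, 221 and 179 in the duct. The duct was highest throughout. The s-shaped body was lower by 2.22 on the log2 scale (adjusted p = 0.0172), while the renal vesicle difference of -1.33 (SE 0.54) had an adjusted p of 0.137. The s-shaped body call was lost without s-shaped body replicate 1 (adjusted p = 0.0628), s-shaped body replicate 3 (0.059) or collecting duct replicate 2 (0.0589). Hoxd11, the other measured Hox11 paralogue, lay below every array median, at 60, 55.1 and 68.4 units in the renal vesicle, 33.4, 31.4 and 76.5 in the s-shaped body and 36.0, 10.5 and 12.1 in the duct. In the renal vesicle it exceeded the duct by 1.11 (SE 0.28, adjusted p = 0.0238), a call lost without any 1 of the 3 renal vesicle arrays or collecting duct replicate 2 or 3 (adjusted p = 0.0506 to 0.0954).

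**Figure D3:**
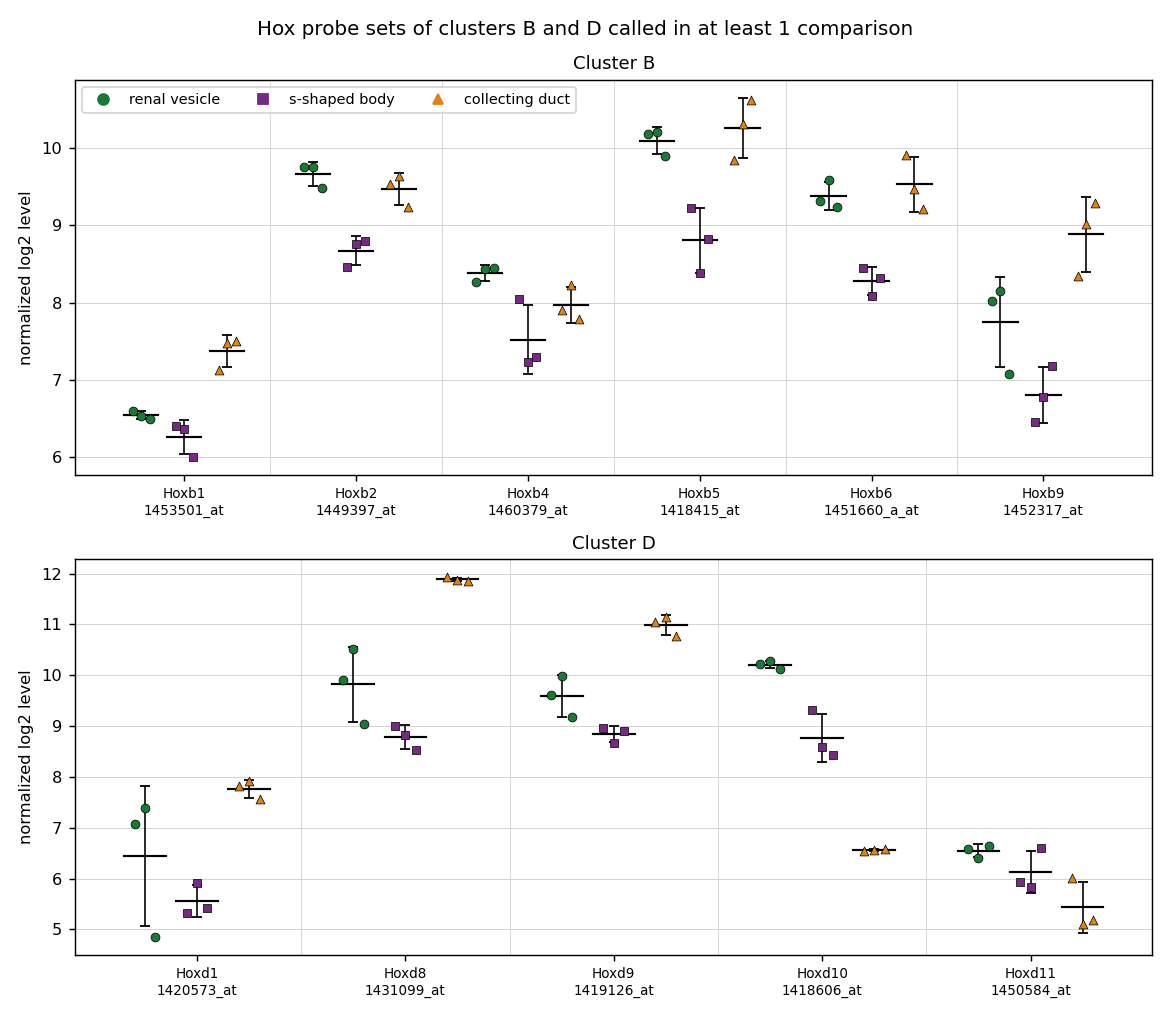
Normalized log2 levels of the probe sets of clusters B and D called in at least 1 comparison, with 3 arrays of each structure as points and bars for the mean ± SD. Hoxd8 and Hoxd9 were highest in the duct and Hoxd10 lowest there, while Hoxb5 and Hoxb6 were lowest in the s-shaped body.

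For Hoxb2, Hoxb5 and Hoxb6 of cluster B the s-shaped body stood apart from both other structures. Hoxb5, a gene of the vagal neural crest, had 1124, 1151 and 905 units in the renal vesicle, 578, 319 and 443 in the s-shaped body and 946, 1265 and 1484 in the duct. Hoxb6, a gene of the lateral mesoderm, had 595, 725 and 556 in the renal vesicle, 328, 255 and 310.1 in the s-shaped body and 984, 692 and 547 in the duct. Hoxb2, a hindbrain gene that sets facial motor neurons, had 814, 819 and 659 in the renal vesicle, 331, 423 and 437 in the s-shaped body and 749, 782 and 559.6 in the duct. In these 3 genes the renal vesicle and duct arrays overlapped and every s-shaped body array lay below both. The s-shaped body differed from the duct by -1.46 for Hoxb5 (SE 0.25, adjusted p = 0.00203), -1.25 for Hoxb6 (SE 0.20, adjusted p = 0.00149) and -0.80 for Hoxb2 (SE 0.17, adjusted p = 0.00729).

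Hoxb9, a thoracic gene, had 212, 246 and 102 units in the renal vesicle, 61.1, 83.7 and 127 in the s-shaped body and 305, 498 and 578 in the duct. The duct was highest, and the s-shaped body was lower by 2.08 on the log2 scale (SE 0.34, adjusted p = 0.00167). The renal vesicle was lower than the duct by 1.14 (adjusted p = 0.0487). That call was lost when any array other than collecting duct replicate 1 was left out (adjusted p = 0.0533 to 0.143). Hoxb1, the rhombomere 4 gene of the hindbrain, had 60.3, 62.2 and 59.0 units in the renal vesicle, 57.2, 56.9 and 41.6 in the s-shaped body and 109.9, 159 and 171 in the duct. It was lower than in the duct by 0.83 in the renal vesicle (SE 0.21, adjusted p = 0.0208) and 1.12 in the s-shaped body (adjusted p = 0.00344). The renal vesicle call was lost without any 1 of the 3 renal vesicle arrays or collecting duct replicate 2 or 3 (adjusted p = 0.0515 to 0.0711).

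Hoxb7 had 82.1, 83 and 134 units in the renal vesicle, 135, 112 and 128 in the s-shaped body and 105, 161 and 190.2 in the duct. The 3 structures overlapped. Its log2 difference from the duct was -0.35 in the renal vesicle (95% interval -0.87 to 0.17, adjusted p = 0.378) and -0.21 in the s-shaped body (-0.73 to 0.31, adjusted p = 0.628).

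From the renal vesicle to the s-shaped body most Hox changes were downward. Of the 37 probe sets 9 changed, or 24.3%, against 18.6% of all, with 8 lower against 9.15% of all and 1 higher against 9.45%. The genes that fell were Hoxa10, Hoxb2, Hoxb4, Hoxb5, Hoxb6, Hoxd8, Hoxd9 and Hoxd10, and Hoxc8 rose. On the normalized values, the s-shaped body arrays of 15 Hox probe sets lay wholly below the renal vesicle and those of 2 wholly above, against 20.1% and 17.2% of all, or 37.3% together. The median log2 difference was -0.16 over the Hox probe sets and -0.04 over all. Hoxd10 fell by 1.44 (SE 0.22, adjusted p = 0.00124), Hoxb5 by 1.29 (SE 0.25, adjusted p = 0.00447), Hoxb6 by 1.10 (SE 0.20, adjusted p = 0.00356), Hoxb2 by 1.00 (SE 0.17, adjusted p = 0.00221) and Hoxa10 by 0.74 (SE 0.16, adjusted p = 0.00812). These 5 calls held when each array was left out in turn.

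The other 4 calls of that comparison did not. Hoxd8 fell by 1.04 (adjusted p = 0.0366), Hoxd9 by 0.74 (adjusted p = 0.0317) and Hoxb4 by 0.86 (adjusted p = 0.0307), and Hoxc8 rose by 1.23 (adjusted p = 0.0256). Hoxd8 was lost without renal vesicle replicate 1 or 2, any s-shaped body array or collecting duct replicate 2 (adjusted p = 0.0563 to 0.128), and Hoxd9 without renal vesicle replicate 1 or 2 or any s-shaped body array (0.0569 to 0.124). Hoxb4 was lost without any renal vesicle array or s-shaped body replicate 2 or 3 (0.0653 to 0.116), and Hoxc8 without renal vesicle replicate 1 or 2 or s-shaped body replicate 1 or 2 (0.0679 to 0.106). The 8 lower calls became 5 without renal vesicle replicate 1 or 2 or s-shaped body replicate 2.

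Renal vesicle replicate 3 lay nearer the s-shaped body than its companions for some Hox genes and farther from it for others. Of the genes called between the nephron structures, it was the lowest renal vesicle array for Hoxb2, Hoxb5, Hoxb6, Hoxd8, Hoxd9 and Hoxd10. For Hoxc8 it was the highest, so it lay nearer the s-shaped body in all of these. It was also the lowest for Hoxd1 and Hoxb9 and the highest for Hoxc4. For Hoxa9 (1455626_at) and Hoxa10 it lay farthest from the s-shaped body, at 9462 and 1301 units, and for Hoxb4 (1460379_at) on the normalized values. Its podocyte markers summed to 7931 units, against 2873 and 2290 in the other renal vesicle arrays, and its duct markers to 2240, against 3336 and 4445. Without it, the s-shaped body differed from the renal vesicle by -1.67 for Hoxd1 (adjusted p = 0.00226), -1.28 for Hoxb9 (adjusted p = 0.021) and 0.82 for Hoxc4 (adjusted p = 0.0359), none of which passed with all 9 arrays. The part of those markers in the Hox values was not tested.

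Genes with several probe sets did not always give 1 answer. The other Hoxa9 probe set, 1421579_at, had 169, 159 and 205 units in the renal vesicle, 227, 154 and 334 in the s-shaped body and 307, 397 and 337 in the duct. It was above the median of all 9 arrays, and its log2 difference from the duct was -0.76 (SE 0.25, adjusted p = 0.0663) in the renal vesicle and -0.58 (adjusted p = 0.156) in the s-shaped body, opposite in sign to 1455626_at. Every renal vesicle array lay below every duct array for 1421579_at. Some alternative settings called it lower in the renal vesicle, with limma adjusted p = 0.0112 under array weights and 0.0367 without quantile normalization. The other Hoxc6 probe sets differed from the duct by 0.13 and 0.55 in the renal vesicle and 0.12 and 0.45 in the s-shaped body, none of them a call. Probe set 1427361_at of Hoxc6 lay between 114 and 149.6 units on all 9 arrays and 1427362_x_at between 128 and 255.

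The called Hoxa3 probe set, 1427433_s_at, had 63.4, 88.0 and 77.1 units in the renal vesicle, 85.2, 45.2 and 103 in the s-shaped body and 30.7, 39.1 and 30.0 in the duct. The other, 1452421_at, had 65.9, 63.1 and 74.8 in the renal vesicle, 97.7, 84.5 and 77.2 in the s-shaped body and 62.8, 87.0 and 49.6 in the duct, and overlapped across structures. Hoxb4 probe set 1460379_at had 258, 309 and 306 units in the renal vesicle, 245, 126 and 140.4 in the s-shaped body and 215, 281 and 207 in the duct, with every s-shaped body array below every renal vesicle array. The other, 1451761_at, had 53.5, 65.5 and 70.7, then 54.5, 8.08 and 58.8, then 72.5, 79.0 and 106 in the same order and was not called, with a log2 difference of the s-shaped body from the renal vesicle of -0.66. Both Hoxa4 probe sets lay at or below 46.2 units on every array and were not called.

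**Figure D4:**
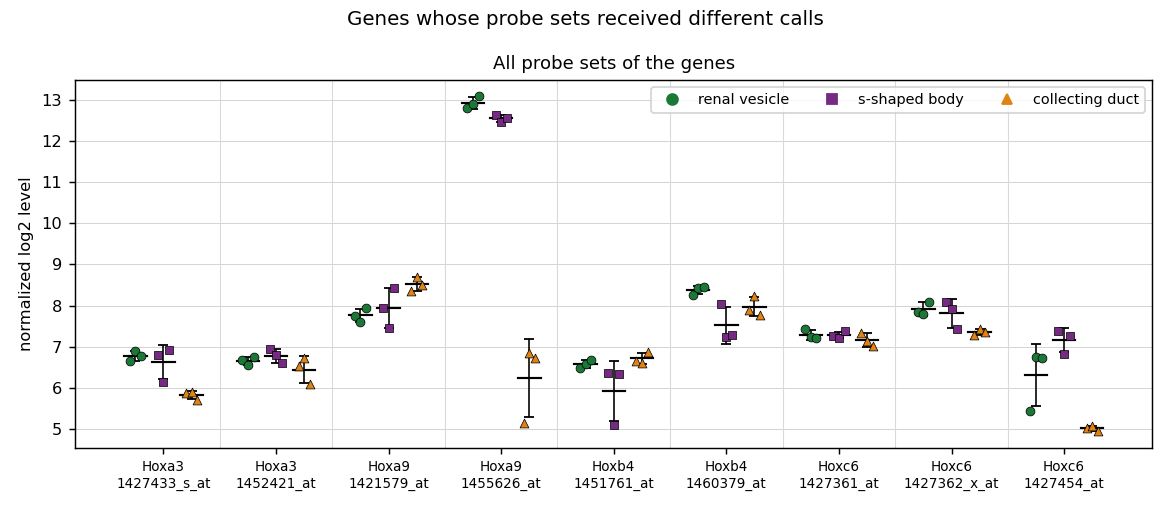
Normalized log2 levels of every probe set of the genes whose probe sets received different calls, with the 3 arrays of each structure as points and bars for the mean ± SD. Hoxa9 probe set 1455626_at separates the nephron structures from the duct, and 1421579_at has its highest mean in the duct, by a much smaller margin.

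Paralogue number did not order the differences. Among the paralogues numbered 9, Hoxa9 (1 of its 2 probe sets) and Hoxc9 were higher in both nephron structures than in the duct, and Hoxb9 and Hoxd9 lower. Among those numbered 8, Hoxc8 was higher and Hoxd8 lower. Hoxa10 and Hoxd10 were higher in both, and Hoxa11 in both and Hoxd11 in the renal vesicle. None of the 4 probe sets of Hoxa13, Hoxb13, Hoxc13 and Hoxd13, the genes of the most posterior body parts, was called, and they lay at 1.45 to 65.7 units. Across the 37 probe sets, which share 31 genes and 9 arrays, the rank correlation of the difference with paralogue number was 0.06 in the renal vesicle against the duct and 0.17 in the s-shaped body against the duct.

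In all, 16 of the 37 probe sets were called in no comparison, and 12 of these lay below the median of all 9 arrays, at 1.45 to 115 units. For these a level below detection and an equal level cannot be told apart, since no detection calls were used. The genes with no call were Hoxa4, Hoxa7, Hoxa13, Hoxb3, Hoxb7, Hoxb13, Hoxc5, Hoxc13, Hoxd12 and Hoxd13. Of the 15 Hox probe sets below the median of all 9 arrays, 3 were called (Hoxa2, Hoxd11 and 1 of Hoxa3), while 7 lay above it on all 9 arrays and 15 on some. The pseudocount of 26 makes the folds of the dim ones smaller than those of the intensities.

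The TALE homeodomain proteins Pbx, Meis and Pknox bind DNA together with Hox proteins. Of 8 measured genes of that list (9 listed), 2 stood above the duct in the renal vesicle, 4 were higher in the s-shaped body than in the duct and 2 in the s-shaped body than in the renal vesicle, and no member was lower by limma's adjusted p. Over 12393 genes with 1 probe set each, 9.12%, 10.9% and 11.8% were higher and 9.5%, 9.72% and 10.5% lower in those comparisons, and the list's median log2 differences were 0.03, 0.26 and 0.05. Meis1 had 572, 517 and 647 units in the renal vesicle, 775, 573 and 573 in the s-shaped body and 102, 75.5 and 86.9 in the duct, a log2 difference from the duct of 2.53 (adjusted p = 1.73e-05) and 2.59 (adjusted p = 8.66e-06). Meis2 had 439, 444 and 371 in the renal vesicle, 1528, 1506 and 928 in the s-shaped body and 15.1, 66.8 and 16.6 in the duct, and rose from the renal vesicle to the s-shaped body by 1.52 (SE 0.31, adjusted p = 0.00607). Both Meis genes had every nephron array above every duct array. Pbx2 was higher in the s-shaped body than in the renal vesicle by 1.21 (adjusted p = 0.000641).

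The genes that act with or below Hox11 in the mesenchyme had 2 members above and 2 below the duct in the renal vesicle, against 9.12% and 9.5% of all genes, and 1 above and 1 below it in the s-shaped body, against 10.9% and 9.72%. Of 6 measured (8 listed), Six2, which keeps nephron progenitors undifferentiated (1.12, adjusted p = 0.0112), and Gdnf (2.24, adjusted p = 0.00832) stood above the duct in the renal vesicle. Eya1, a cofactor of Six2 (-1.16, adjusted p = 0.0194), and Osr1, an early kidney mesoderm factor (-2.65, adjusted p = 0.000181), were lower. Several of these levels were dim. Eya1 read 21.3 to 61.5 units in the renal vesicle and 127 to 138 in the duct, and Osr1 4.24 to 9.15 and 134 to 303. Gdnf read 57.5 to 242 in the renal vesicle and 8.61 to 17.1 in the duct. In the s-shaped body Itga8, the integrin subunit of the mesenchyme, was higher than in the duct (1.57, adjusted p = 0.0362) and Osr1 lower (-2.60, adjusted p = 0.000119). None of the 6 passed between the nephron structures by limma's adjusted p.

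The share of called Polycomb and trithorax genes, 3 of 18 in each comparison with the duct, stood beside 9.12% of all genes higher in the renal vesicle and 9.72% lower in the s-shaped body. Of these 18 measured genes (19 listed), which hold Hox genes silent or active, Eed, Bmi1 and Phc1 stood above the duct in the renal vesicle, and Ezh2, Eed and Ash2l were lower in the s-shaped body than in the duct. From the renal vesicle to the s-shaped body 6 fell against 10.5% of all genes: Ezh2, the methyltransferase of the repressive complex, by 1.62 (adjusted p = 0.00133), Eed by 1.14, Bmi1 by 0.86, Suz12 by 0.81, Ash2l by 0.53 and Phc1 by 0.52. The list's median log2 difference there was -0.24. Among 12 measured genes of the inputs to the clusters (13 listed), 3 stood above the duct in the renal vesicle against 9.12% of all genes, the s-shaped body had 1 above and 1 below the duct against 10.9% and 9.72%, and 3 fell from the renal vesicle to the s-shaped body against 10.5%. Aldh1a2, which makes retinoic acid, had 891, 1178 and 1012 units in the renal vesicle, 561, 534 and 519.7 in the s-shaped body and 3.07, 2.27 and 5.15 in the duct. Its 3 structures did not overlap, and it was higher than in the duct by 5.19 (adjusted p = 8.44e-08) in the renal vesicle and 4.24 (adjusted p = 1.46e-07) in the s-shaped body. Acvr2b, a receptor of Gdf11, and Ctcf, an insulator protein, also stood above the duct in the renal vesicle, by 1.24 and 0.57. Gmnn, which restrains DNA replication, was lower in the s-shaped body than in the duct by 1.59 on the log2 scale and Aldh1a2, Gmnn and Ctcf fell from the renal vesicle to the s-shaped body.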

How the data were processed

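Per the labels, each sample was 1 Affymetrix array. The deposited file gave a linear-scale intensity per probe set and array, and the submitters' processing notes name GCOS without a version or an algorithm. The authors' scaling was not stated; the mean of each array, trimmed by 2% at either end, was 500.2 to 500.3. Controls (64 of 22690 probe sets) were left out. From the deposited intensities, log2(intensity + 26) was computed, 26 being the 20th percentile of all values, and the arrays were quantile normalized because their log2 medians differed by 0.30, over the limit of 0.25. No probe set was filtered.

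All 9 arrays entered 1 fit with limma 3.58.1 (R 4.3.3), using lmFit and eBayes with trend on 6 residual degrees of freedom. Its two-sided p-values were adjusted by Benjamini-Hochberg over all 22626 probe sets, at an adjusted p under 0.05; the procedure was tested on simulated data. Probe sets were named from the platform annotation and left separate for Hox genes; other genes used 1 probe set each. RefSeq for GRCm38.p6 gave the neighbours and promoters. Arrays give no counts, so their number limits the precision. The members and the gene lists were chosen with earlier results of these data known. Values on all arrays are given for Hox probe sets called with a log2 difference of at least 1 and for genes whose probe sets disagree; the values of Hoxb2, Hoxb7 and of list genes were added after they were seen.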

Additional observations from a re-analysis of the deposited data

Results flagged for a closer look

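Hoxa11os, the antisense transcript of Hoxa11, lay outside the Hox set and was above the collecting duct in the renal vesicle, which is why it is listed here. Its probe set had intensities of 101, 85.8 and 68.9 in the renal vesicle arrays, 83.9, 51.9 and 29.6 in the s-shaped body arrays and 16.9, 14.2 and 37.4 in the collecting duct arrays. The log2 difference of the renal vesicle from the duct was 1.38 (SE 0.29, limma adjusted p = 0.00937), higher in 3 of 3 arrays, and that of the s-shaped body was 0.74 (adjusted p = 0.122). The sources used here do not say how the array separates Hoxa11 from its antisense transcript. The 3 probe sets left out for carrying several symbols went the other way. In the renal vesicle their log2 differences from the duct were -1.93 (limma adjusted p = 0.00569), -1.10 (0.00497) and -0.60 (0.319, not called). In the s-shaped body they were -2.51 (0.000846), -0.98 (0.00744) and -1.55 (0.0128) in the same order. None was called between the nephron structures.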

How the results depend on the processing

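Of 44 Hox calls over the 3 comparisons, 33 held under every alternative in which the probe set was tested, 11 did not under at least 1, and no call changed direction. Of 67 Hox results with no call, 10 were called under at least 1 alternative. With a pseudocount of 10, limma called 0 Hox probe sets higher in the s-shaped body than in the renal vesicle instead of 1 (2 at an unadjusted p under 0.05), and with a pseudocount of 100 it called 5 lower instead of 8. Requiring probe sets to exceed the array median in at least 6 arrays left 15 Hox probe sets, so that 7 instead of 12 stood above the duct in the renal vesicle, and 7 instead of 11 above and 5 instead of 8 below it in the s-shaped body. Leaving out each array in turn gave 9 to 12 higher and 2 to 4 lower in the renal vesicle against the duct, 10 to 11 higher and 7 to 8 lower in the s-shaped body against the duct, and 0 to 2 higher and 5 to 9 lower in the s-shaped body against the renal vesicle.

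Same-numbered arrays shared little of their deviations, which correlated between -0.0378 and 0.101, over 0.1 in 1 of 9 pairs. Such correlations cannot show whether same-numbered samples came from the same embryos, which the labels do not say. With the replicate block the counts were 12 higher and 3 lower, 10 and 8, and 1 and 8 in the same order of comparisons. Over all probe sets, array weights called 2993 higher and 2810 lower in the renal vesicle against the duct, where the fit without them called 1772 and 1695, and 2852 instead of 1771 lower in the s-shaped body against the duct. Without collecting duct replicate 2, 1164 were higher in the renal vesicle. The causes of these shifts were not tested. Dim probe sets, with signal near background and no detection calls, limit what could be seen.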
